A study of Sus scrofa with 10 samples.

Results

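P4HB and 9 genes of the collagen matrix were followed in longissimus lumborum, the long back muscle of the pig. The 10 genes were taken by name from a table of 25880 genes: P4HB, COL1A1, COL1A2, COL3A1, COL6A1, COL6A2, COL6A3, SPARC, DCN and LUM. P4HB was selected on its difference between these same pigs, and the other genes were set beside it to see whether it follows the collagens from pig to pig and between the breeds. All pigs were castrated males of 2 Portuguese breeds, 5 Alentejano (AL) and 5 Bísaro (BI), slaughtered at about 150 kg, with 1 RNA-seq library per pig. They were raised outdoors on commercial diets, and no agent or allele was tested. Age is not in the sample labels, and each breed was represented by 5 animals of the study, so that breed cannot be told apart from anything else that differed between those animals.

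Collagen chains are made in the endoplasmic reticulum, where prolyl 4-hydroxylase hydroxylates proline in their glycine-rich repeats so that the triple helix is stable at body temperature. The enzyme is built from catalytic alpha subunits, encoded by P4HA1, P4HA2 and P4HA3, and from the beta subunit P4HB, which is also protein disulphide isomerase, a general folding enzyme with many clients other than collagen. In muscle, collagens I and III form the fibres of the perimysium and endomysium, collagen VI forms fine filaments next to the basement membrane of the fibre, and decorin (DCN), lumican (LUM) and SPARC bind to and organise the fibrils. Fibroblasts and fibro-adipogenic progenitors are the main source of these matrix chains in muscle.

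The link between the enzyme and its substrates can be read in the coding sequence, and the stretches below were read from the pig reference genome (Sscrofa11.1, RefSeq annotation release 106). P4HB (chromosome 12, 1121816 to 1131291, plus strand) encodes 508 amino acids, and its coding sequence holds the redox-active motif cysteine-glycine-histidine-cysteine 2 times, at codons 53 to 56 and 397 to 400. These motifs are the capitals in the first pair of sequences, which lie in coding exon 2 (chr12:1123105-1123146) and coding exon 9 (chr12:1129192-1129233), both on the plus strand.
P4HB, first motif: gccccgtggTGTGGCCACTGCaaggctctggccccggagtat
P4HB, second motif: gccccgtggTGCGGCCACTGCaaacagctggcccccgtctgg
For the collagens, the first coding exon of 54 bases inside the glycine repeat is shown for 1 chain of each kind and for COL1A2, and the capitals mark the glycine codons that open each triplet. The exons are coding exon 8 of COL1A1 (chr12:26393098-26393151, minus strand), coding exon 8 of COL1A2 (chr9:74184187-74184240, plus strand), coding exon 6 of COL3A1 (chr15:93571887-93571940, plus strand) and coding exon 5 of COL6A2 (unplaced scaffold, 609955 to 610008, minus strand).
COL1A1: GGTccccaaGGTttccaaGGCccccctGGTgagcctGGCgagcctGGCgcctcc
COL1A2: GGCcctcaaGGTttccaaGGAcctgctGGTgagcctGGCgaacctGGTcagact
COL3A1: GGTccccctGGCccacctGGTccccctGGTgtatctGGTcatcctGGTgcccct
COL6A2: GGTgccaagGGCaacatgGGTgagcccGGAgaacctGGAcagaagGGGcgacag
Each of these exons encodes 6 triplets, and proline, the residue that the enzyme hydroxylates when it closes a triplet, fills that position in 3 of 6 triplets in COL1A1, 2 of 6 in COL1A2, 5 of 6 in COL3A1 and 2 of 6 in COL6A2. Over the longest unbroken run of triplets, proline closed 34.6% of 338 triplets in COL1A1, 29.2% of 339 in COL1A2 and 42.9% of 343 in COL3A1. The collagen VI runs were shorter, with 28.8% of 59 triplets in COL6A2 and 21.4% of 42 in COL6A3. COL6A1 could not be matched to the annotation by its symbol, and its sequence was not analysed here.

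The values are read counts per gene scaled between pigs, called normalised read counts here, and 1 read was worth close to 1 unit in every pig. Between 2298045 and 3343194 reads per pig fell on genes, and the 10 highest genes took 48.5% to 60.3% of them. The paper reports many more sequenced reads per sample, most of them aligned, so that a large part is not in these counts. Matrix genes were counted with few reads, and the reason was not tested. In AL and BI, summed over 5 pigs each, P4HB had 886 and 414 reads, COL1A2 had 27 and 9, DCN had 17 and 10, and LUM had 5 and 2. A gene was tested between the breeds when its counts summed to at least 50 over the pigs of 1 breed. This kept 3807 genes and 7 of the 10 members, and COL1A2, DCN and LUM are given by their values alone. The libraries were stranded, but the strand setting of the counting is not given in the sources used here, so that reads of a gene and of a transcript on its other strand cannot be told apart. In a tissue sample, more cells of a type and more RNA per cell cannot be told apart either.

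Per kilobase of exon, P4HB was the highest of the 9 members with a known exon length, with a mean over the 10 pigs of 53.1 normalised counts per kilobase. COL6A2 followed at 12.2 and SPARC at 9.47, while COL1A1 stood at 3.51, COL3A1 at 2.73, DCN at 1.75, COL6A3 at 1.64, COL1A2 at 0.698 and LUM at 0.342. The range over pigs was 28.8 to 117 for P4HB and 7.20 to 23.8 for COL6A2, so that the lowest pig for P4HB was above the highest pig for COL6A2. SPARC, from 4.78 to 19.7, overlapped with COL6A2 and with COL1A1, which ran from 1.23 to 10.3, and COL3A1 (0.691 to 6.04), DCN (0 to 6.26) and COL6A3 (0.284 to 3.54) overlapped with one another.

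P4HB was higher in AL. Its normalised read counts in the AL pigs were 141 (AL44), 268 (AL46), 280.5 (AL49), 85.4 (AL52) and 105 (AL63). In the BI pigs they were 92.3 (BI25), 69.4 (BI34), 69.0 (BI36), 87.2 (BI37) and 76.1 (BI42). AL46 and AL49 stood apart from the other 8 pigs, 4 of the 5 AL pigs were above every BI pig, and AL52 lay inside the BI range. The breed means were 176 ± 91.9 for AL and 78.8 ± 10.54 for BI (SD over 5 pigs each), a ratio of 2.23 and a log2 FC of 0.996. The AL pigs also differed more among themselves, with a standard deviation of 0.77 on the log2 scale against 0.19 in BI. Because P4HB was selected on this contrast, no test of it is given. Without AL46 the log2 FC was 0.80, and without AL49 it was 0.79.

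**Figure D1:**
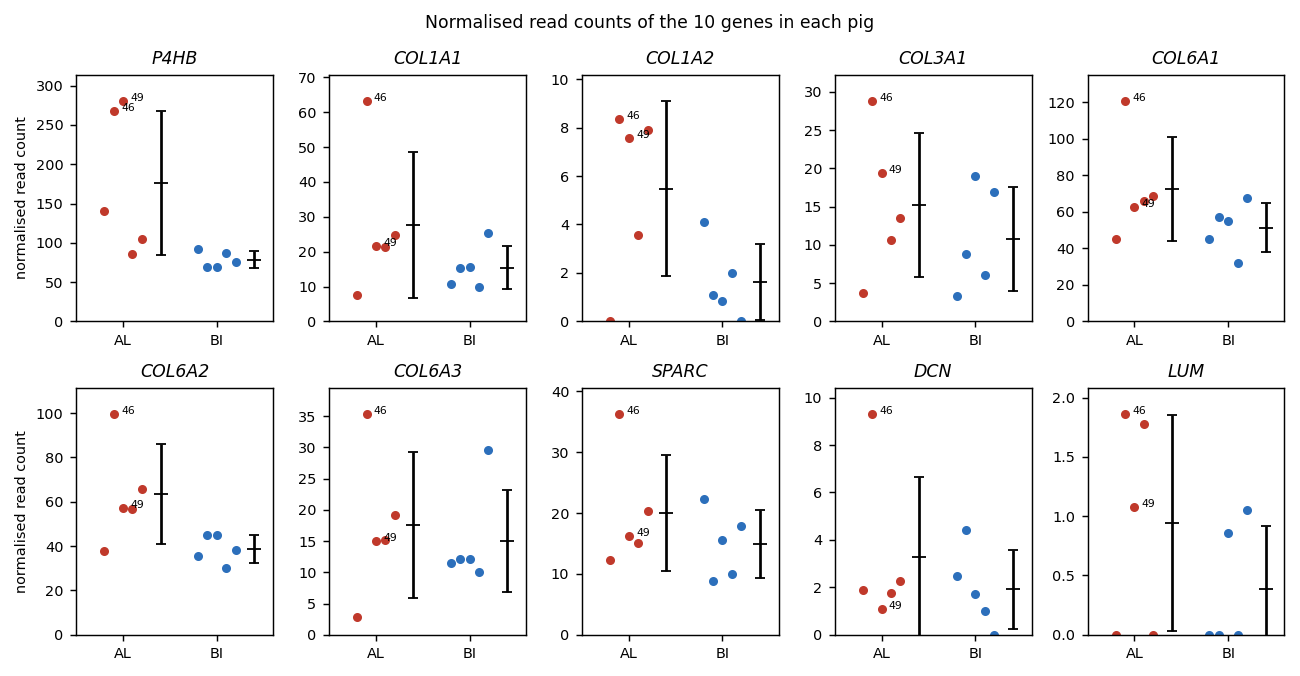
Normalised read counts (vertical axes, each starting at 0) of the 10 genes in the 5 AL pigs (red points) and 5 BI pigs (blue points), with the mean and SD of each breed as a black bar, cut off at 0 where it would fall below, and with AL46 and AL49 labelled. AL46 was the highest pig for the 9 genes other than P4HB, whereas both AL46 and AL49 were high for P4HB, at 268 and 280.5.

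Of the fibrillar collagens, COL1A1 and COL3A1 overlapped widely between the breeds. COL1A1, the main chain of collagen I, had normalised read counts of 7.55, 63.2, 21.6, 21.3 and 24.9 in AL44, AL46, AL49, AL52 and AL63. In BI25, BI34, BI36, BI37 and BI42 it had 10.7, 15.4, 15.5, 10.02 and 25.4. AL46 had more than any other pig, and AL44, rank 3 of the 10 for P4HB, was the lowest of all 10. The means were 27.7 ± 20.9 in AL and 15.4 ± 6.12 in BI (SD, n = 5 each), with a log2 FC of 0.59 (95% interval -0.35 to 1.53, limma adjusted p = 0.717) that shrank to 0.23 without AL46. COL3A1, the chain of collagen III, had 3.78, 28.8, 19.4, 10.7 and 13.6 in the AL pigs and 3.29, 8.81, 18.96, 6.01 and 16.9 in the BI pigs. Its log2 FC was 0.45 (95% interval -0.67 to 1.56, limma adjusted p = 0.844), and AL44 and BI25 were its 2 lowest pigs. It was 0.83 without AL44, 0.17 without AL46 and 0.14 without BI25. COL1A2, the other chain of collagen I, had 0, 8.37, 7.55, 3.56 and 7.92 in the AL pigs against 4.12, 1.10, 0.862, 2.004 and 0 in the BI pigs, in the same order of animals. A count of 3 reads was worth 2.47 to 3.39 units, so that AL44 and 4 of the BI pigs, all but BI25, were under that limit and no fold is given for the gene. For each 100 counts of COL1A1 there were 16.8 ± 14.3 counts of COL1A2 and 62.7 ± 25.9 of COL3A1 (SD, n = 10 pigs).

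Of the tested members, COL6A2 came closest to the difference seen in P4HB. This alpha 2 chain of collagen VI had 37.8 (AL44), 99.5 (AL46), 57.2 (AL49), 56.9 (AL52) and 65.6 (AL63) normalised read counts in AL. The BI pigs had 35.4 (BI25), 45.2 (BI34), 44.8 (BI36), 30.1 (BI37) and 38.03 (BI42). The 4 AL pigs other than AL44 were above every BI pig, an arrangement of at least 4 AL pigs that 4.54% of all tested genes showed, and AL44 lay inside the BI range. The means were 63.4 ± 22.6 and 38.7 ± 6.42 (SD, n = 5 each), and the log2 FC of 0.65 had a 95% interval of 0.12 to 1.17. Its limma p was 0.0197 before and 0.407 after adjustment over all tested genes, and the exact two-sided permutation test of the breed labels gave p = 0.0317, or 0.523 after the same adjustment. With all pigs the difference thus passed as a single gene and did not pass once all tested genes were counted. The log2 FC was 0.47 without AL46 (limma unadjusted p = 0.0602) and 0.56 without BI37 (limma unadjusted p = 0.0521). With any other single pig left out, the unadjusted limma p stayed under 0.05.

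COL6A1, the alpha 1 chain, followed COL6A2 closely, with 45.3, 121, 62.6, 65.8 and 69.0 in the AL pigs and 45.3, 57.3, 55.2, 32.1 and 67.6 in the BI pigs. BI42 was among the AL values here, and the log2 FC was 0.46 (95% interval -0.11 to 1.03, limma adjusted p = 0.631), or 0.26 without AL46. COL6A2 had 82.7 ± 11.07 counts for each 100 of COL6A1 (SD, n = 10), from 56.3 in BI42 to 95.1 in AL63. COL6A3, the long alpha 3 chain, had close to the same level in both breeds, with 2.83, 35.3, 15.1, 15.1 and 19.2 in AL and 11.5, 12.1, 12.1, 10.02 and 29.6 in BI. Its means were 17.5 ± 11.7 and 15.1 ± 8.16 (SD, n = 5 each), while its log2 FC was 0.00 (95% interval -1.08 to 1.08, limma adjusted p = 0.9997) and went to -0.32 without AL46 and 0.49 without AL44. AL44 held 6.25 counts of COL6A3 for each 100 of COL6A1, against 21.2 to 43.8 in the other 9 pigs.

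Among the genes that bind collagen, SPARC, a matricellular protein, had 12.3, 36.3, 16.2, 15.1 and 20.4 normalised read counts in AL and 22.2, 8.81, 15.5, 10.02 and 17.96 in BI. Apart from AL46 the AL pigs lay inside the BI range, and the log2 FC was 0.38 (95% interval -0.35 to 1.11, limma adjusted p = 0.780), or 0.15 without AL46. The small proteoglycan decorin, encoded by DCN, had 9.30 in AL46 and at most 4.41 (BI34) in any other pig, and none was counted in BI42. LUM had a highest value of 1.86 in AL46 and was at 0 in 5 of the 10 pigs, under the limit of 3 reads in all of them.

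Across the set, the log2 differences ran from 0.00 for COL6A3 to 1.15 for COL1A2, with a median of 0.47, or 0.46 for the 9 genes other than P4HB. These medians include COL1A2, DCN and LUM, whose counts were too low to compare, and COL6A3, whose sign changed with the pig left out. Of all tested genes 47.5% were higher in AL, with a median of -0.02. None of the members separated the breeds without overlap, which 1.84% of all tested genes did. In the limma test 0 of these 9 genes, 6 of them tested, were called at an adjusted p under 0.05 and 1 (COL6A2) had an unadjusted p under 0.05, where 0.0263% and 9.4% of all tested genes passed these thresholds. The 1 gene called was INTS11, higher in BI. With edgeR, DESeq2 and limma-voom on the recovered reads, and without each pig in turn, 0 of the 9 were called as well, although DESeq2 called 55 genes in all and limma without AL44 called 40. The paper measured total collagen in this muscle and found more of it in BI than in AL. RNA counts do not measure that content, and whether they follow it was not tested.

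**Figure D2:**
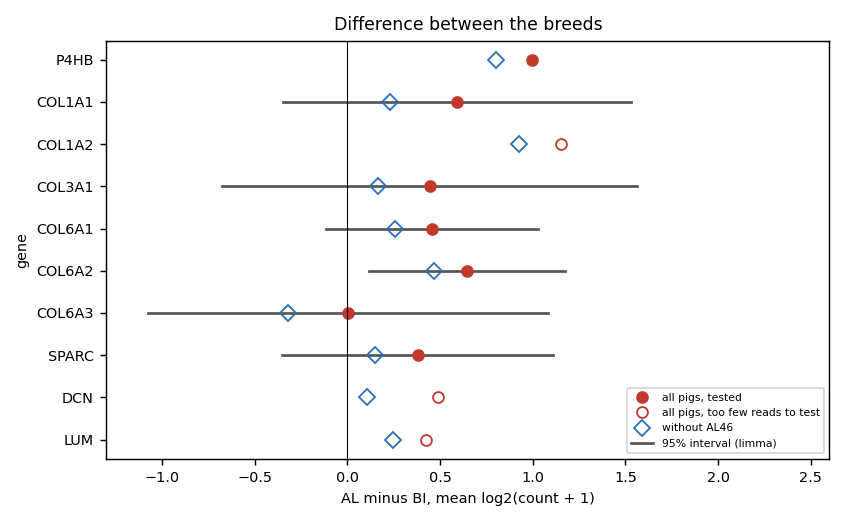
Difference between the breeds for each gene (horizontal axis, mean log2(count + 1) in AL minus that in BI), with all pigs (red circles, open where the gene had too few reads to test) and without AL46 (blue diamonds), and with the 95% interval from limma (grey lines, none for P4HB, which was selected on this difference). The interval of COL6A2 (0.12 to 1.17) was the only one of those drawn that did not reach 0, and COL6A3 moved from 0.00 to -0.32 without AL46.

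A single pig weighed heavily on these differences. AL46 was the highest of the 10 pigs for each of the 6 tested genes other than P4HB, while it was the highest for 11.8% of all tested genes. It was also highest for COL1A2, with 9 reads against 7 in AL49 and AL63, for DCN, with 10 against 4 in BI34, and for LUM, where AL46 and AL52 had 2 reads each. The 6 collagen genes summed to 202 ± 94.7 in AL and 133 ± 33.8 in BI (SD, n = 5 each), and without AL46 the AL mean was 164 ± 45.6 (SD, n = 4). Leaving out AL46 took the median log2 difference of the 9 genes from 0.46 to 0.23, with COL6A3 below 0, whereas for all tested genes it was -0.01. AL44 moved the other way, as the lowest pig for COL1A1 and COL6A3 and 1 of the 2 lowest for COL3A1. It was also the lowest pig for 15.0% and the highest for 17.3% of all tested genes, so that its extreme values are not limited to the collagens. Without AL44 the median of all 10 members was 0.72 and the log2 FC was 0.96 for COL1A1, 0.83 for COL3A1, 0.61 for COL6A1, 0.81 for COL6A2 and 0.49 for COL6A3. In that fit COL1A1 (limma adjusted p = 0.213), COL6A1 (limma adjusted p = 0.274) and COL6A2 (limma adjusted p = 0.0938) had an unadjusted p under 0.05, and no member passed after adjustment. Low p were more frequent over the whole table as well, with 586 of 3807 tested genes under 0.05 unadjusted, against 358 with all pigs.

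P4HB did not keep a fixed proportion to the collagens. For each 100 counts of the 6 collagens there were 145 (AL44), 75.2 (AL46), 153 (AL49), 49.2 (AL52) and 52.5 (AL63) counts of P4HB in the AL pigs. In the BI pigs there were 83.6 (BI25), 49.6 (BI34), 46.8 (BI36), 96.7 (BI37) and 42.9 (BI42). AL44 and AL49 had the highest ratio and AL46 a middle one, and the breeds overlapped. COL6A1 and COL6A2 made up most of the collagen sum in every pig, so that this is mainly a ratio to collagen VI.

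Over the 10 pigs the correlation of P4HB with the other members was positive and did not pass the test. Because P4HB was selected on the breed difference, the r over all pigs and their permutation p include that difference. Pearson's r of the log2 values was highest for COL6A2, at 0.61 (Spearman's rho 0.35), followed by COL1A2 at 0.56 (rho 0.60) and SPARC at 0.51 (rho 0.43). COL6A1 had 0.48 (rho 0.21), COL1A1 0.45 (rho 0.16), LUM 0.36 (rho 0.19), COL3A1 0.36 (rho 0.16) and DCN 0.35 (rho 0.21), and COL6A3 came last with 0.16 (rho 0.10). For COL6A2 the permutation p was 0.0632 for r and 0.331 for rho, and 0.741 and 0.966 after adjustment over the 3806 genes compared with P4HB. For the other 5 members that were tested, the permutation p of r ran from 0.138 (SPARC) to 0.644 (COL6A3) and that of rho from 0.219 (SPARC) to 0.785 (COL6A3), with adjusted p from 0.819 to 0.982 for r and from 0.937 to 0.993 for rho. Of the 3806 genes, 0 passed an adjusted p of 0.05 by r or by rho (0%) and 271 had an unadjusted p under 0.05 by r (7.12%), and 0 of the 6 tested members were among those. The smallest adjusted p of any gene was 0.152.

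AL46 was high both for P4HB and for the collagens. The median r of the 9 members was 0.45, against -0.02 for all genes (quartiles -0.26 and 0.24), and 4.28% of genes had an r as high as COL6A2 while 32.2% had one as high as COL6A3. Without AL46 the median of the 9 fell to 0.09, with COL6A2 at 0.32, COL1A1 at 0.02 and COL6A3 at -0.21. AL49 and AL46 were the 2 pigs farthest from the median of P4HB, and without both the median was -0.23, with COL1A1 at -0.46, COL3A1 at -0.59 and COL6A3 at -0.64. Without those 2 pigs COL1A2, SPARC and DCN had 0.04, 0.14 and 0.07, and the range of P4HB was narrower by construction. Without AL49 alone the median was 0.50, so that of the pigs left out singly it was AL46 on which the relation rested most. With the breed means subtracted, which removes the difference between AL and BI, the median was 0.25, from 0.19 for LUM to 0.39 for SPARC. COL6A2, the highest before, was then at 0.25, below SPARC, COL1A2 (0.35), COL1A1 (0.29) and COL3A1 (0.27).

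**Figure D3:**
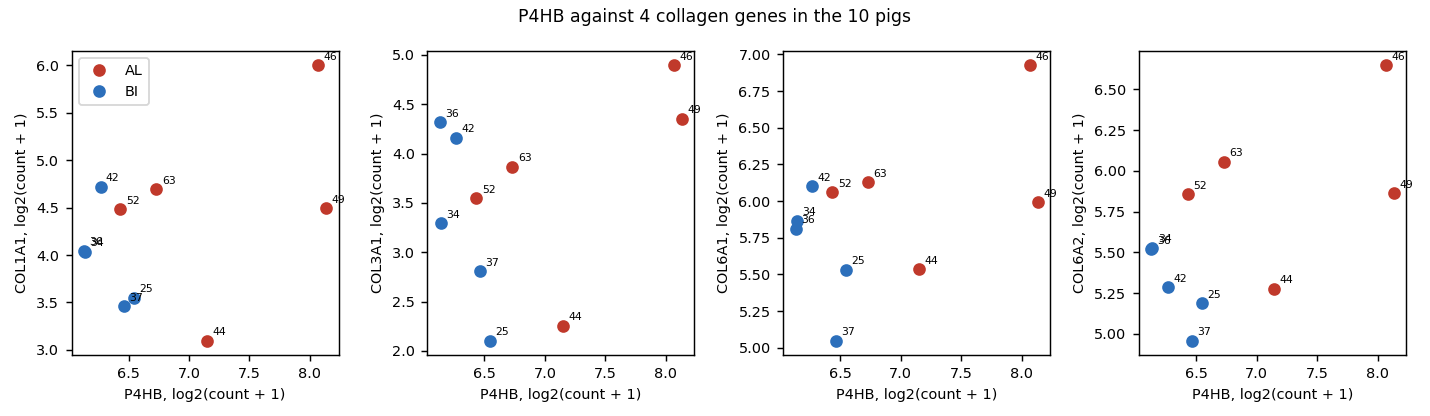
P4HB (horizontal axes) against COL1A1, COL3A1, COL6A1 and COL6A2 (vertical axes) in the 10 pigs, all as log2(normalised count + 1), with AL in red, BI in blue and the animal number beside each point. AL46 lies at the top right in all 4 panels, AL49 has a like P4HB value with lower collagen values, and AL44 has more P4HB than any BI pig with COL1A1 lower than in all of them.

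**Figure D4:**
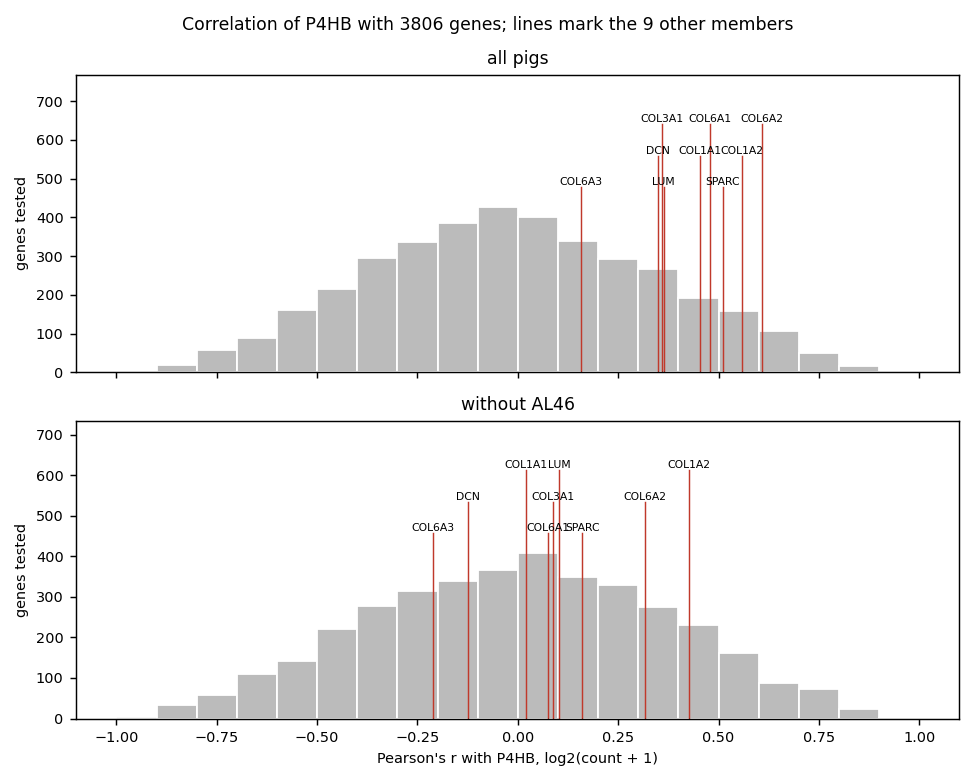
Number of tested genes (vertical axis) by Pearson's r with P4HB (horizontal axis, steps of 0.1) over the 10 pigs in the upper panel and without AL46 in the lower panel, with red lines at the 9 other members. The members lie between 0.16 and 0.61 in the upper panel and between -0.21 and 0.43 in the lower one.

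The 5 collagen genes with enough reads to be tested had, by their medians, higher r with one another than with P4HB. Among these (COL1A1, COL3A1, COL6A1, COL6A2 and COL6A3), the 10 pairwise r ran from 0.58 to 0.94 with a median of 0.82. The closest pairs were COL1A1 with COL6A1, at 0.94, and COL6A1 with COL6A2, at 0.91. An r over 0.7 was reached by 9 of the 10 pairs, against 3.18% of all pairs of tested genes. Without AL46 the range was 0.36 to 0.88, the median 0.70, and 5 of 10 pairs were over 0.7, against 3.95% of all pairs. With breed means subtracted the range was 0.77 to 0.96. COL1A2, with few reads, differed from the others, since its r with P4HB (0.56) was above its r with COL1A1 (0.53), COL6A3 (0.46), COL6A1 (0.42) and COL3A1 (0.33) and below that with COL6A2 (0.67). With COL1A2 included, the 15 pairs ran from 0.33 to 0.94 with a median of 0.73, and without AL46 the lowest was 0.16. The pairs share pigs and genes and are given as a description, with no test. SPARC had r of 0.47 to 0.73 with the same 5 genes, and 0.18 to 0.44 without AL46, and P4HB had 0.16 to 0.61, and -0.21 to 0.32 without AL46.

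**Figure D5:**
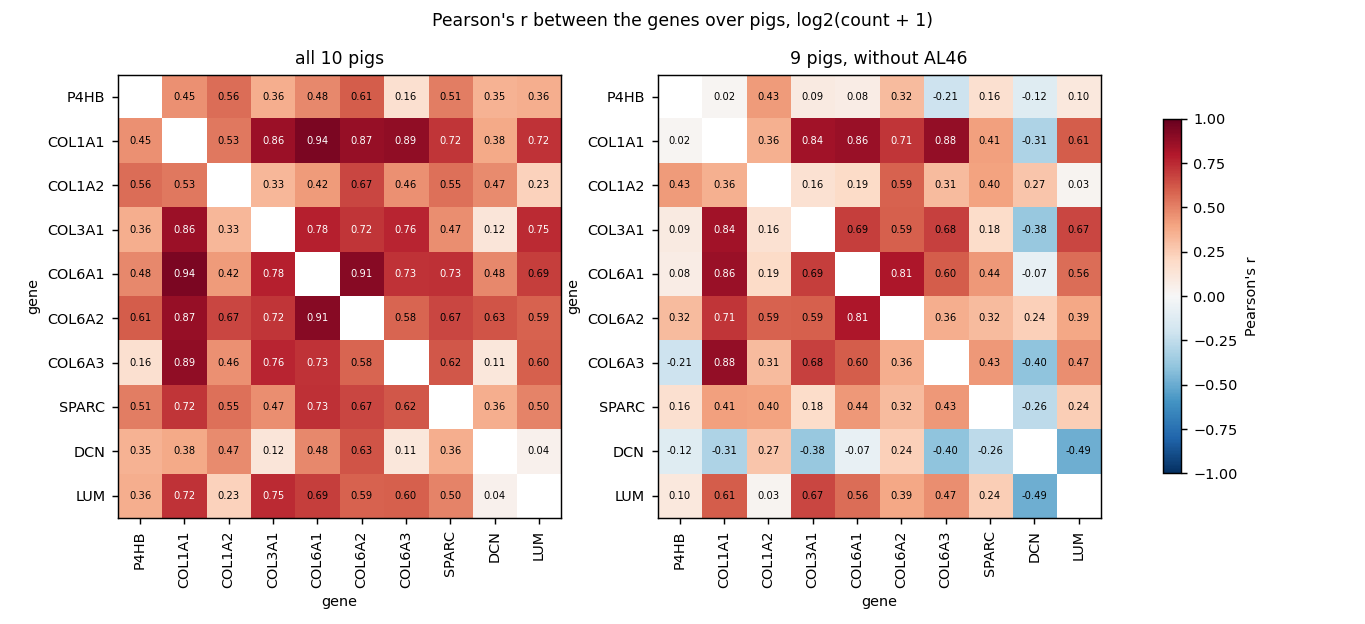
Pearson's r over pigs between each pair of the 10 genes (both axes), from log2(normalised count + 1), with all 10 pigs on the left and without AL46 on the right, coloured from -1 (blue) to 1 (red) with the value in each cell. The block of COL1A1, COL3A1 and the collagen VI genes stays positive on both sides (0.58 to 0.94 and 0.36 to 0.88), while the row of P4HB pales and partly turns negative without AL46.

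None of the tested genes in the lists of collagen processing passed the test. The alpha subunits had hardly any reads, with 6 in AL and 3 in BI for P4HA1, 9 and 7 for P4HA2, and 1 and 3 for P4HA3, each over 5 pigs. Of the prolyl and lysyl hydroxylation list 11 of 13 genes were found and 1 was tested, P3H1, a prolyl 3-hydroxylase, with 6.90 ± 2.70 in AL and 11.14 ± 3.96 in BI (SD, n = 5 each, limma adjusted p = 0.627). The median log2 difference of the 11 was 0.08. In the list of collagen folding, secretion, cleavage and crosslinking 4 of 13 genes were tested, with a median log2 difference of 0.23 over all 13. SERPINH1, the collagen chaperone, had 11.7 ± 7.002 against 6.16 ± 1.47 (log2 FC 0.71, SE 0.39, limma adjusted p = 0.618), and LOXL3, a lysyl oxidase, had 89.9 ± 28.4 against 103.9 ± 33.1. Of the disulphide isomerases and chaperones of the endoplasmic reticulum, the other family to which P4HB belongs, 16 of 17 were found, with a median of 0.09. HSP90B1, with 24.0 ± 10.7 in AL and 28.1 ± 9.46 in BI, and CALR, with 13.3 ± 4.999 and 10.9 ± 4.51, were the tested members.

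Among other matrix genes, COL4A2, a basement membrane collagen, had 153.5 ± 56.7 in AL and 120.0 ± 27.3 in BI, and COL8A2 had 106 ± 29.4 and 109.5 ± 13.1 (SD, n = 5 each). The other collagens had a median log2 difference of 0.00 over 18 genes found, 5 of them tested. COL6A5, COL21A1 and COL28A1 had no reads in any pig, so that their difference was 0 by construction. The median fell on these 3 genes and does not measure a lack of difference. The summed counts of the other collagens were highest in AL46, at 446. They had an r of 0.66 with P4HB over the 10 pigs, given as a description and not computed without AL46. This 0.66 was the highest r of the lists of collagen processing and matrix genes, and the lowest was -0.44, for prolyl and lysyl hydroxylation. NID2, a basement membrane linker protein, was lower in AL, with 88.7, 48.3, 59.3, 90.7 and 52.03 against 110.4, 116, 128, 94.2 and 109.9 in BI. Its breeds did not overlap, as in 1.84% of all tested genes, and its log2 FC was -0.75 (SE 0.21, limma adjusted p = 0.221). The median log2 difference was 0.13 over 27 other matrix genes (9 tested) and 0.23 over 8 genes of matrix turnover such as MMP15 and CTSB (2 tested). It was -0.17 over 12 genes of TGF-beta signalling such as TGFB3 and LTBP4 (4 tested). Most genes in these medians had too few reads to be tested, so that the -0.02 over all tested genes is from an unlike set. Of the 27 genes tested in these 7 lists 0 were called by limma, edgeR, DESeq2 or limma-voom, and 3 (NID2, THBS4 and CCN1) had an unadjusted limma p under 0.05, a threshold that 9.4% of all tested genes passed. THBS4 and CCN1 are named for that p alone.

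Markers of the cells in the sample were read beside these values. The genes of skeletal muscle fibres were abundant, with ACTA1 at 10810 ± 3555 in AL and 14180 ± 3802 in BI, and the 8 found summed to 20010 to 39770 in AL and 34520 to 54160 in BI. Markers of fibroblasts and fibro-adipogenic progenitors, 9 of 10 found, summed to 44.5 to 70.8 in AL and 30.8 to 104 in BI, with 61.4 in AL46, rank 6 of the 10 pigs. Their defining gene PDGFRA had 1 read in AL and 0 in BI, and DPT, the only one with enough reads to be tested, had 42.4 ± 13.3 in AL and 60.2 ± 26.4 in BI. Smooth muscle and pericyte genes (5 of 5 found) summed to 22.2 to 44.2 in AL and 17.0 to 36.97 in BI, with AL46 at 40.9 rank 2. Only MYH11 of these 5 genes had enough reads to be tested. The sum of the 5 had an r of 0.74 with P4HB, the highest of the cell type lists. By the same measure immune genes had 0.40, endothelial genes 0.35, fibroblast markers 0.10 and tendon genes -0.19. Blood genes had -0.31, muscle fibre genes -0.45 and adipocyte genes -0.58. These r are given as a description, with no test, and were not computed without AL46 or with breed means subtracted. Endothelial genes (4 of 6) reached 16.7 in AL46 against at most 9.88 in BI, adipocyte genes (7 of 8) summed to 8.63 to 26.4 in AL and 16.9 to 32.8 in BI, and immune genes (6 of 6, LYZ and CD3E at 0) to 27.6 to 67.0 and 8.81 to 39.5. Blood genes (2 of 3) summed to 2.26 to 10.2 in AL and 7.39 to 16.5 in BI, and tendon genes (4 of 4, TNMD and COMP at 0) to at most 3.72 and 5.01. Of 12 markers tested 0 were called by any of the 4 tools, and 1 (TNNT3) had an unadjusted limma p under 0.05, against 9.4% of all tested genes. The part of these cells in the differences above was not tested.

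The neighbours of the members on the genome were read for the same pigs. ARHGDIA lies 4496 bases upstream of P4HB on the same strand (chromosome 12, 1113358 to 1117319). It had 40.6, 87.4, 45.3, 24.0 and 28.3 in the AL pigs and 19.8, 19.8, 21.6, 35.1 and 23.2 in the BI pigs. AL46, AL49 and AL44 were the 3 highest pigs for ARHGDIA as they were for P4HB, and BI37 came next. Its log2 FC was 0.77 (SE 0.32, limma adjusted p = 0.454). With P4HB it had an r of 0.88 (permutation p = 0.00075, 0.408 after adjustment) and a rho of 0.77 (permutation p = 0.0126, 0.542 after adjustment), which was rank 3 of 3806 genes by r. The r was 0.83 without AL46, 0.77 without the 2 pigs farthest from the median of P4HB and 0.80 with breed means subtracted. PPP1R27, a regulatory subunit of protein phosphatase, lies 4999 bases downstream on the same strand, and its r of 0.55 fell to 0.26 without AL46 and to -0.11 without the 2 farthest pigs. An uncharacterised lncRNA on the other strand, LOC110255936, overlaps the end of P4HB by 179 bases, and SPARC lies wholly inside LOC110257252, an lncRNA on the other strand, over 12809 bases. Neither lncRNA had an identifier in the table, so that their part in the counts of P4HB and SPARC was not tested. FTCD, 915 bases from COL6A2 on the other strand, had no reads.

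The 5 genes whose pattern over the 10 pigs was most like that of P4HB were AP4B1, a subunit of an adaptor complex of vesicle transport (r = 0.91), the unnamed gene ENSSSCG00000003868 (0.88), ARHGDIA (0.88), GPR17, a G protein-coupled receptor (0.88), and the unnamed gene ENSSSCG00000034277 (0.86). Without AL46 these r were 0.82 to 0.90. Nearest to the mean log2 value of COL1A1, COL1A2 and COL3A1 were NDUFB10 (0.95), a subunit of respiratory complex I, the transcription factor gene JUN (0.95), CST3 (0.95), which encodes cystatin C, RPS6KB2 (0.94), a ribosomal protein S6 kinase, and FLNC (0.91), a filamin of the Z-disc. Their r without AL46 were 0.85 to 0.92. No gene stood in both lists. GPR17, with a mean of 313, overlaps LIMS2, with a mean of 3.90, by 9522 bases on the other strand. NDUFB10, with a mean of 70770, overlaps RPL3L (mean 59.9) by 744 bases and RPS2 (mean 514) by 2 bases on the other strand. FLNC overlaps an lncRNA on its other strand. The strand of these reads was not tested, so that the counts carry the name of the annotated gene and may not be its own transcript.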

How the data were processed

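A single stranded mRNA library per pig was made from longissimus lumborum of castrated males, 5 AL and 5 BI, grouped by the breed in their labels. Per the labels and the study's methods, reads were trimmed (Trim Galore 0.5.0), mapped with HISAT2 2.1.0 to Sscrofa11.1 under the Ensembl release 94 annotation, and counted per gene with HTSeq 0.11.1. The authors deposited a normalised signal, which is the count over a size factor that DESeq2 gave for the library, and its mean. The deposited log2 fold changes, p-values and scores (standard error and Wald statistic) belong to the authors' own comparison and were not used. No sequencing batch or date is in the labels, and 0 columns belonged to other samples.

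The members and gene lists were chosen with earlier results of these data known. Each pig's values were divided by the value of 1 read, which gave whole reads (within 0.01) for 100% of values; in BI37 1 read was worth 1.002, so that its values are close to the reads themselves. As the unit is a normalised signal, limma 3.58.1 (trend, no covariate, R 4.3.3) was the test, on log2(value + 1), for genes summing to at least 50 in 1 breed, with Benjamini-Hochberg adjustment over 3807 genes. Fold changes on that scale understate the change of low genes. On the recovered reads edgeR 4.0.16 and limma-voom called 1 gene each and DESeq2 1.42.0 called 55. Single values were tested with the exact permutation test over 252 divisions, whose smallest p is 0.00794, and correlations with 100000 permutations. The tests were tried on simulated data.

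Genes were named by these rules: the 10 members, genes within 5 kb of them, the 3 highest, the called and the defining genes of each list, and the 5 most like P4HB or the fibrillar collagens. Symbols were found for 14857 of 25880 identifiers. Lengths and positions came from RefSeq, while the authors counted on Ensembl models. The intervals from limma are for the difference between the breeds and rest on the variation between pigs. The limit of 3 reads covers counting error for single values only.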

Additional observations from a re-analysis of the deposited data

Results flagged for a closer look

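In the 20 groups of 5 pigs formed by the 10 genes and the 2 breeds, 2 held a pig that lay far from the others by Dixon's ratio (above 0.71), and chance alone gives about 1 in 20. COL6A3 was at 29.6 normalised read counts in BI42, while the other BI pigs had at most 12.1. DCN was at 9.30 in AL46, while the other AL pigs had at most 2.26. These counts rest on few reads.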

How the results depend on the processing

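The number of genes called between the breeds moved from 1 to 2 with a pseudocount of 10, to 0 with a mean of at least 50 required in each breed (112 with an unadjusted p under 0.05), to 40 without the filter on low counts and to 55 with DESeq2, and ran from 1 to 40 without each pig in turn (40 without AL44). The log2 FC of P4HB stayed above 0, at 0.79 to 1.21 without each pig, and the count of other members called stayed at 0 under every alternative. With a mean of at least 50 required in each breed, COL6A1 was the only other member tested. COL1A2, DCN and LUM were tested only without the filter on low counts. COL6A3 turned negative with a pseudocount of 0.1 (-0.032), with limma-voom (-0.0091) and when any of 8 pigs was left out (-0.32 to 0.49 over all 10). The median log2 FC of the members was 0.24 to 0.72 without each pig. The median r with P4HB was 0.09 to 0.55 without each pig and turned to -0.23 without the 2 pigs farthest from the median of P4HB, where COL1A1 had -0.46, COL3A1 -0.59, COL6A1 -0.23, COL6A2 -0.0079, COL6A3 -0.64 and LUM -0.42. Without AL46, COL6A3 (-0.21, up to 0.45 without others) and DCN (-0.12, up to 0.63) turned negative. The cause was not tested. The median r among the collagens was 0.70 to 0.85 without each pig, an alternative chosen after seeing the data, as was the subtraction of breed means (0.84). No median of the members is given for settings that leave out the 3 members with few reads. No paired analysis was possible because the animal numbers are not shared between the breeds. At this depth COL1A2, DCN and LUM could not be compared.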
